A study of Rattus norvegicus with 12 samples.

Results

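Intronic circular RNAs of rat liver are described here: the 2754 entries of the circular RNA (circRNA) table that carry the type ciRNA, out of 21876 entries in all. The members were chosen by that type alone, without regard to their levels. Of the other entries, 18289 were exonic circRNAs and 833 were intergenic. The ciRNA entries held 17359 back-splice reads, which was 6.10% of all back-splice reads over the 12 libraries.

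An intronic circRNA, or ciRNA, comes from an intron that has been spliced out. Splicing joins the 5′ end of the intron to an adenosine near its 3′ end, the branch point, and leaves a lariat; when the tail of the lariat is trimmed and the loop is not opened by the debranching enzyme, a circle from the first base of the intron to the branch point remains. An exonic circRNA forms in another way, when a downstream 5′ splice site is joined back to an upstream 3′ splice site. Such ciRNAs are known mainly as nuclear RNAs, and some have been linked to the transcription of their host genes.

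The libraries were made from liver of Wistar rats that had received a high-fat diet, with 60% of calories from fat, for 4 weeks and then streptozotocin, a beta-cell toxin, at 35 mg/kg. All 3 groups shared this induction of diabetes. The sham group (n = 5) had a mock operation. The sleeve gastrectomy group (n = 5) had most of the stomach removed and was sampled 3 months after surgery. The relapse group (n = 2) came from rats whose diabetes had returned after the operation. For sham and relapse, the time of sampling is not given in the sources used here. The RNA had been treated with RNase R, which digests linear RNA, so no linear host transcript was measured. No label states that the libraries of a group came from different animals, and the p-values therefore measure only the spread between these samples.

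Each library held 18176 to 37229 back-splice reads, of which 977 to 2139 were ciRNA reads. Levels are given as RPM, the reads per 1000000 back-splice reads of the library. A ciRNA is counted at a single junction, so its count does not grow with its length. With these depths, a count of 0 allows up to 3 reads, which is 99.3 RPM in the library sham 1 and 165.1 RPM in sham 2; such limits cover counting error only. Of 8 hepatocyte marker genes, 7 hosted a circRNA and together they held 8126 back-splice reads. Markers of cholangiocytes, of pancreas and gut, and of erythroid cells held none, those of stellate cells 3, of lymphocytes 1, of endothelium 23 and of Kupffer cells and macrophages 64. In bulk liver, fewer cells of a type and less RNA per cell cannot be told apart.

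The table named the host gene of a ciRNA either by its symbol (2105 entries, 6851 reads) or by its Ensembl identifier (649 entries, 10508 reads), and these kinds differed in length, position and counts. The symbol entries also gave the number of the intron. The identifier entries gave instead an interval equal to the circle itself. Identifier entries were 649 of 2754 by number but held 60.5% of all ciRNA reads.

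Symbol ciRNAs were short. Their median length was 613 bases, with quartiles of 407 and 872, and 13 of 2105 exceeded 5000 bases. The shortest was a 116-base ciRNA of Shc1, an adaptor protein of growth factor receptors (chromosome 2, 188753878 to 188753993, plus strand, Rnor_6.0). The next were ciRNAs of Unkl, with 122 bases, and of Ubfd1, with 138 bases. The longest were ciRNAs of Wwc1, with 71485 bases, Cyp2a3, with 43597 bases, and AC099449, with 41182 bases; each had 1 or 2 reads in 1 library.

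Identifier ciRNAs were long, with a median of 8880 bases and 402 of 649 (61.9%) above 5000 bases. Exonic circRNAs, measured from end to end with their introns, had a median of 5584 bases. The longest identifier entries were ciRNA1078 of LOC103689965, with 191644 bases and 2 reads, ciRNA2728 of Sult2a2, a sulfotransferase, with 183739 bases and 4 reads, and ciRNA939 of Slc28a2, a nucleoside transporter, with 164428 bases and 19 reads.

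**Figure D1:**
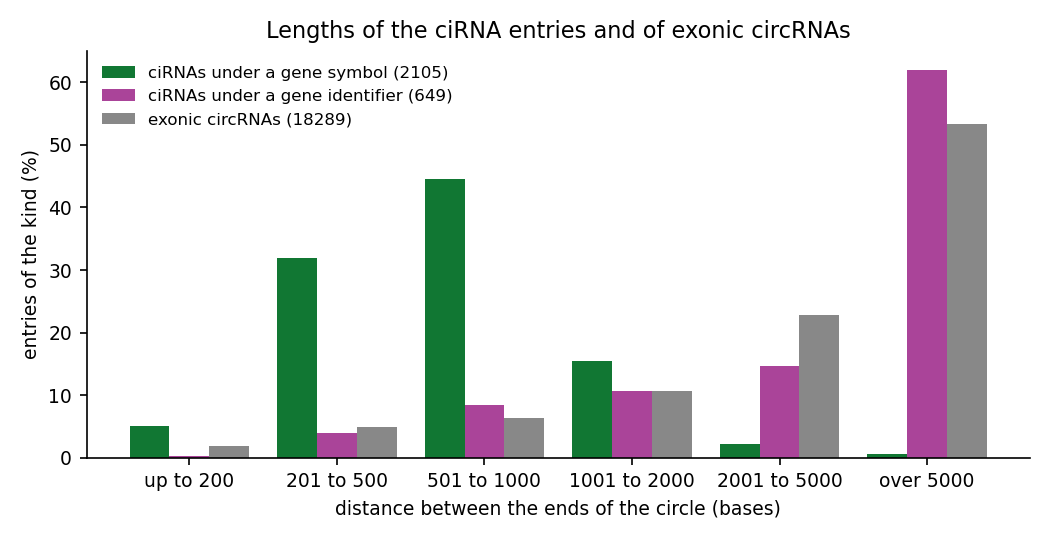
Bars give the share (%) of entries in each range of length (bases between the ends of the circle) for symbol ciRNAs, identifier ciRNAs and exonic circRNAs. Symbol ciRNAs peak in the third range, which ends at 1000 bases and holds 44.6% of the entries, while 61.9% of identifier ciRNAs and 53.3% of exonic circRNAs exceed 5000 bases.

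The positions of the identifier entries went against the label intronic for many of them. An end of the circle lay exactly on an end of an exonic circRNA, which is an exon edge, in 312 of 649 identifier entries (48.1%), and in none of the 2105 symbol entries. A whole exonic circRNA lay inside the circle, on the same strand, in 269 identifier entries (41.4%) and in none of the symbol entries. For 318 identifier entries neither held on the positions as written. By contrast, the 5′ end of 260 symbol ciRNAs (12.4%) directly followed the last base of a circularised exon, which puts it on the first base of an intron; this was the case for 2 identifier entries. Only 4 identifier entries shared a 5′ end with a symbol ciRNA. All these positions were compared as written. Junctions listed under both a symbol and an identifier had starts, the lower coordinates, that differed slightly. Matches at a start could therefore have been missed. The identifier counts of 312, 269, 2 and 4 could be too low for this reason, and that of 318 too high. The kinds also differed at low counts: 55.7% of the values above 0 were single reads in symbol ciRNAs and 0.0588% in identifier ciRNAs, where 22.9% were 2 reads.

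Most symbol ciRNAs were seen in a single library. Of the 2105 symbol ciRNAs, 1143 were read once over all 12 libraries. The share that occurred in a single library was 84.1%, against 54.1% of identifier ciRNAs and 60.0% of symbol exonic circRNAs. Over both kinds, 14 ciRNAs were read in all 12 libraries. The 6 symbol ciRNAs among them came from Errfi1, which gave a pair of them, C3, Tf, Pck1 and Zdhhc16. The 8 identifier ciRNAs came from Ttc3, Hipk2, Gnaq, Rnf125, Myo9a, Pan3, Ralgps2 and the gene of WASH complex subunit 1.

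Symbol ciRNAs came more often from the plus strand. They numbered 1395 on the plus strand and 710 on the minus strand, a plus share of 66.3%, against 51.0% in symbol exonic circRNAs. The skew was present in every library: the plus share of the symbol ciRNAs detected ranged from 63.2% to 72.6%, and that of the exonic circRNAs from 50.8% to 52.7%. By reads, 4964 of the 6851 symbol ciRNA reads were on the plus strand. Identifier ciRNAs had a plus share of 54.2%. Whether a step of the processing had a part in this skew was not tested.

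The place of the 3′ end could be read where the next exon downstream was itself the start of an exonic circRNA. The branch point of a mammalian intron usually lies a short way before the next exon. For 169 of the 2105 symbol ciRNAs such an exon began within 200 bases of the 3′ end. The 3′ end lay 1 to 10 bases before it in 103 of these, 60 of them directly at the last intron base, and 11 to 60 bases before it in 56, with a median of 27.5 bases in that range. Counted by entry, the strands differed here as well. On the plus strand 76 of 101 ended 1 to 10 bases before the exon and 15 ended 11 to 60 bases before it. On the minus strand 27 of 68 ended 1 to 10 bases and 41 ended 11 to 60 bases before it, and none ended farther away within the window. Of these 41, 13 came from intron 8 of Tf, and several of the 76 on the plus strand came from Pck1. No count per intron or host was made, so how far a few hosts shaped this difference was not tested.

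**Figure D2:**
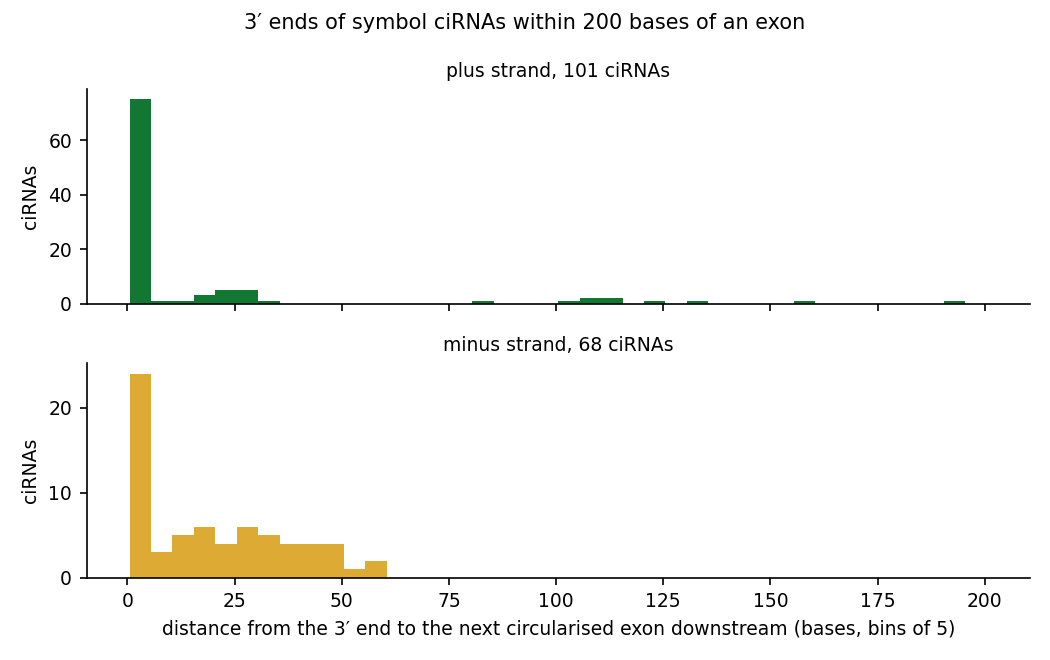
Histograms in bins of 5 bases give the distance (bases) from the 3′ end of a symbol ciRNA to the next circularised exon downstream, for 101 plus-strand and 68 minus-strand ciRNAs within 200 bases. Plus-strand ciRNAs pile up next to the exon, while 41 of the minus-strand ciRNAs, 13 of them from intron 8 of Tf, spread over 11 to 60 bases.

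Many symbol ciRNAs started at the same base and ended a few bases apart. Among symbol ciRNAs, 515 (24.5%) shared their 5′ end with another, in 188 introns, and these introns held 51.1% of the symbol ciRNA reads. Only 1 pair of symbol ciRNAs shared a 3′ end. Over both kinds and on positions as written, 626 of 2754 ciRNAs (22.7%) shared a 5′ end, in 237 of 2365 groups. Of these groups, 170 had 2 members and 21 had 5 or more. The 3′ ends within a group spanned a median of 11 bases, but over 1000 bases in 43 groups. Of the 327 steps between neighbouring 3′ ends of symbol ciRNAs, 123 (37.6%) were of 1 base and 244 (74.6%) of at most 10 bases. In the median shared intron the most-read 3′ end held 60.0% of the reads.

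Values of the 5 introns with the most ciRNAs follow, with ties settled by reads. Intron 8 of Tf, which encodes the iron carrier transferrin, gave 15 ciRNAs from the 5′ end at position 111712363 of chromosome 8, minus strand, with 439 reads and 3′ ends spread over 28 bases. Intron 9 of Ptbp1, a splicing repressor, gave 11 ciRNAs with 37 reads over 21 bases. Intron 18 of LOC297568, an alpha-1-inhibitor III gene of the protease inhibitors of rat plasma, gave 11 ciRNAs with 16 reads over 28 bases. Intron 7 of Met, the hepatocyte growth factor receptor, gave 8 with 15 reads over 12 bases, and intron 3 of Aox3, an aldehyde oxidase, gave 7 with 28 reads over 74 bases; introns of Ttc14 and Tle1 also gave 7, with 21 and 16 reads. The alpha-1-inhibitor III genes form a family of similar copies, so reads could have been split among them.

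How the reads were divided among the 3′ ends differed from intron to intron. In intron 3 of Errfi1, an inhibitor of the EGF receptor family, ciRNA79 (chromosome 5, 167962683 to 167963494, plus strand, 812 bases) held 818 of 919 reads, and ciRNA80, 1 base shorter, held 87. The share of ciRNA79 in the reads of this intron lay between 84.5% and 94.0% in all 12 libraries, at 89.6% ± 4.67 (SD, n = 5) in sham libraries, 88.1% ± 2.02 (n = 5) after sleeve gastrectomy and 90.8% ± 4.50 (n = 2) in relapse. In intron 29 of C3, the central protein of complement, ciRNA144 (chromosome 9, 9739070 to 9740171, plus strand, 1102 bases) held 81.8% to 100% of the reads, and ciRNA513, again 1 base shorter, held 46 reads. In intron 8 of Tf no 3′ end dominated: ciRNA166, the most read, held 157 of the 439 reads, and its share ranged from 13% to 71% over the libraries, on 17 to 67 reads each. The Errfi1 and C3 introns thus kept a single main 3′ end in every library, and the Tf intron did not.

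**Figure D3:**
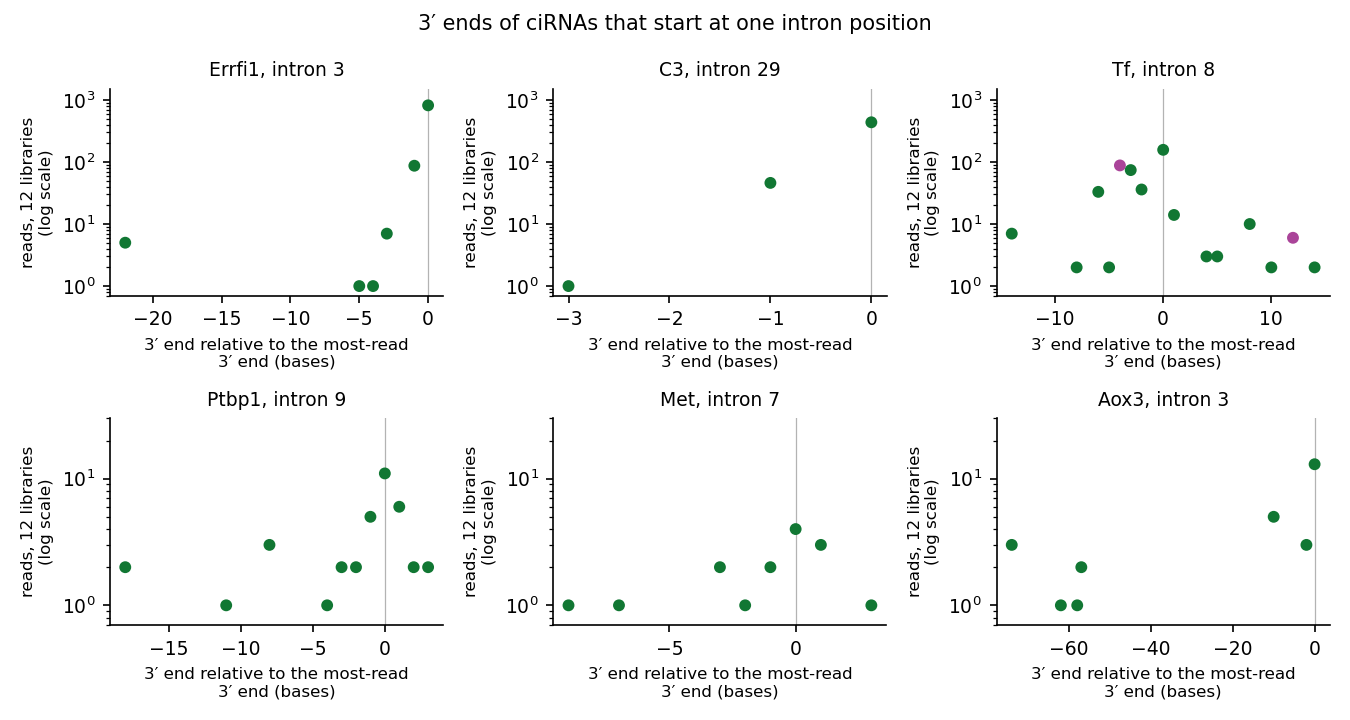
Each point is a ciRNA; the x axis gives its 3′ end relative to the most-read 3′ end of the same intron (bases, downstream to the right) and the log y axis its reads over 12 libraries, with symbol entries in green and identifier entries in purple. In Errfi1 the main ends lie 1 base apart (818 and 87 reads), within a span of 22 bases for all its ends. The ends span 3 bases in C3, 28 in Tf and 74 in Aox3.

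The median intron number of symbol ciRNAs was 7, with quartiles of 4 and 13, and 144 of them (6.84%) came from intron 1. Among the latter were the ciRNAs of Hp, which encodes haptoglobin, the binder of free haemoglobin (ciRNA39, chromosome 19, 42098080 to 42098301, plus strand, 222 bases, 74 reads), and a 172-base ciRNA of Pck1, which encodes the gluconeogenic enzyme phosphoenolpyruvate carboxykinase (ciRNA103, 90 reads).

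The 2754 ciRNAs came from 1762 host genes. A single ciRNA was found for 1258 hosts (71.4%), and 5 or more for 48. Most hosts, 1237 (70.2%), also gave an exonic circRNA; the share was 66.6% for hosts of symbol ciRNAs and 85.0% for hosts of identifier ciRNAs. Of the hosts of exonic circRNAs, 22.5% gave a ciRNA. The hosts with the most ciRNAs were LOC297568 with 35, from 15 different 5′ ends, Tf with 29 from 7, Pck1 with 18 from 7, C3 with 14 from 10, Apob with 14 from 12, and Aox3 with 11 from 5; Fn1, Ptbp1 and Pzp also had 11, with fewer reads. Apob encodes the main protein of very low density lipoprotein, and its 14 ciRNAs held 35 reads in all.

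Hosts differed widely in how their back-splice reads were divided between ciRNAs and exonic circRNAs. Among the 56 hosts with at least 50 ciRNA reads, 7 had no exonic read. By reads, the first 5 of these were the identifiers annotated as UDP glucuronosyltransferase 2A3 (862 reads) and as a zinc finger protein (219 reads), Hp (140 reads), ENSRNOG00000027891 (125 reads) and the alpha-2u globulin identifier (64 reads). The reads of Hp were from symbol entries and those of the other 4 from identifier entries. Besides Hp, the 6 hosts without an exonic read were identifiers not joined to a symbol. Exonic reads listed under a symbol could not count for them, so a lack of exonic reads was not established there. Of hosts named here for other reasons, the ciRNA share was 99.8% in Errfi1, 90.8% in Zdhhc16, a palmitoyltransferase, 85.4% in C3, 68.9% in Pck1, 68.7% in Cyp2e1, an ethanol-oxidising cytochrome P450, and 53.2% in Tf. The 5 lowest shares came from identifier entries: 5.09% in Ralgps2, 5.89% in Evi5, 8.98% in Pan3, 13.2% in Cyp2c7 and 14.2% in Dpyd, which breaks down pyrimidines. In Cyp2c7, a retinoid- and steroid-metabolising cytochrome P450, 700 ciRNA reads stood beside 4598 exonic reads.

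By role, a few genes of secreted liver proteins gave many of the symbol ciRNA reads. Of 32 genes for plasma transport and acute phase proteins, 15 hosted a ciRNA. Their symbol entries held 690 reads, or 10.1% of the symbol ciRNA reads, of which Tf gave 375 and Hp 140. Of 38 genes of complement and coagulation, 17 did, with 9.30% of the symbol ciRNA reads. Of these 637 reads, C3 alone had 550. Fga and Fgb, which encode the fibrinogen alpha and beta chains, gave 15 and 12 reads. Among apolipoproteins and lipid transport proteins 9 of 22 genes hosted a ciRNA, with Apob ahead of Lrp1, a lipoprotein receptor with 7 reads.

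Metabolic genes were hosts as well. Of 64 genes of xenobiotic and steroid metabolism, 24 hosted a ciRNA, with 1403 reads, of which 205 were from symbol entries; Cyp2c7, the carboxylesterase Ces1d (359 reads) and Cyp2e1 (101) led. Of 29 genes of glucose production, glycogen and fructose, 15 did, with 403 reads, led by Pck1 (166), the insulin receptor gene Insr (117) and the glucose transporter gene Slc2a2 (60). Among cholesterol and bile acid genes 12 of 25 did, led by Cyp7a1, whose enzyme sets the rate at which bile acids are made and whose 23 ciRNA reads stood beside 1 exonic read. The Cyp7a1 reads numbered 8, 0, 7, 3 and 0 in sham, 1, 0, 0, 0 and 4 after sleeve gastrectomy and 0 in both relapse libraries; the groups overlapped, and no comparison passed (adjusted p of 0.999, 1.0 and 0.891 for sleeve gastrectomy against sham, relapse against sleeve gastrectomy and relapse against sham, edgeR). Of 58 amino acid and urea cycle genes 33 did, led by Dpyd (98) and the tyrosine aminotransferase gene Tat (36), and of 39 fatty acid genes 17 did, led by the fatty acid synthase gene Fasn (30).

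Of 35 genes of ribosomal proteins and translation factors, 14 hosted a ciRNA, with 83 reads, of which 49 were from Eif4g2, an initiation factor. Of 20 genes of folding in the endoplasmic reticulum, 13 did, led by Xbp1, a transcription factor of the unfolded protein response, with 35 ciRNA reads and no exonic read. Of 29 antigen presentation and immune genes 6 did, led by Il1r1, the interleukin-1 receptor, with 98 reads. Of 31 genes of lariat turnover and circRNA processing, 4 did, with 15 reads, led by the splicing factor genes Hnrnpl and Sf3a1 with 5 reads each.

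The ciRNA share of back-splice reads overlapped between the groups. It was 6.10%, 6.46%, 5.09%, 5.34% and 5.23% in the sham libraries 1 to 5, 6.37%, 5.57%, 7.10%, 6.40% and 6.67% after sleeve gastrectomy, and 7.25% and 5.75% in relapse. The means were 5.64% ± 0.604 (SD, n = 5), 6.42% ± 0.561 (n = 5) and 6.50% ± 1.07 (n = 2). Sleeve gastrectomy exceeded sham by 0.779 percentage points, relapse exceeded sham by 0.858 and sleeve gastrectomy by 0.0791 percentage points. Sham 1 and 2 lay within the range after sleeve gastrectomy, and no test was made of this sum over the members. Leaving out relapse 1 turned the last difference to -0.675, and leaving out relapse 2 took it to 0.833. The difference between relapse and sham became 0.104 and 1.61 in the same way.

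Each kind gave its own picture. Symbol ciRNAs made up 2.29% ± 0.508 (SD) of the reads of the sham libraries, 2.54% ± 0.311 of those after sleeve gastrectomy and 2.38% ± 0.346 of those from relapse. Sham 1 and 2 stood at 2.87% and 2.82%, above the other sham libraries, which lay between 1.87% and 2.04%. Identifier ciRNAs made up 3.35% ± 0.197 in sham libraries, 3.88% ± 0.368 after sleeve gastrectomy and 4.12% ± 0.720 in relapse. Their sham values lay between 3.19% and 3.64% and those after sleeve gastrectomy between 3.43% and 4.34%, so the ranges overlapped for both kinds.

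**Figure D4:**
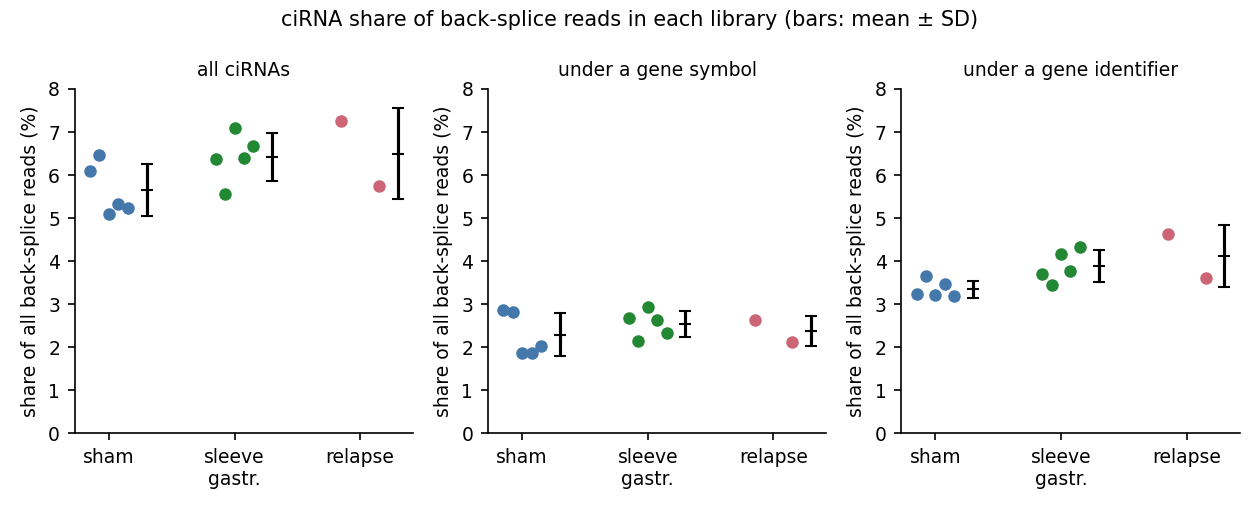
Points give the share (%) of all back-splice reads of a library held by all ciRNAs, symbol ciRNAs and identifier ciRNAs; black bars show mean ± SD (sham and sleeve gastrectomy n = 5, relapse n = 2). Means of all ciRNAs are 5.64%, 6.42% and 6.50%, and the groups overlap in each panel.

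The most abundant ciRNA was ciRNA79 of Errfi1. Its level was 2880, 4346, 2082, 2206 and 1813 RPM in sham 1 to 5, 3639, 2752, 3344, 2523 and 2739 RPM after sleeve gastrectomy, and 4222 and 2659 RPM in relapse. All groups overlapped, with sham 2 the highest library. The next symbol entry was ciRNA144 of C3, at 1026, 2091, 1718, 1103 and 744 RPM in sham libraries, 1843, 1867, 1510, 2097 and 1678 RPM after sleeve gastrectomy, and 1786 and 1209 RPM in relapse. Sham 1, 4 and 5 lay below every sleeve gastrectomy library, while sham 2 and 3 lay within their range; the log2 fold change was 0.47 ± 0.29 (SE), with an adjusted p of 0.996 (edgeR quasi-likelihood test, Benjamini-Hochberg over all junctions tested). The Tf junction of ciRNA534, to which an identifier entry ending 1 base away was added, stood at 552 ± 379 RPM (SD) in the sham group, with 790 ± 578 RPM for sleeve gastrectomy and 392 ± 441 RPM for relapse. Both entries were read in every sleeve gastrectomy library and in sham 1, 2, 3 and 5, so they may be different 3′ ends. In sham 4 and in each relapse library only 1 of them was read.

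Several abundant identifier ciRNAs were at 0 in single libraries and high in others. The largest was ciRNA248 at the UDP glucuronosyltransferase 2A3 identifier (chromosome 14, 22340998 to 22379888, plus strand, 38891 bases), which was at 0 in sham 3 and at 1254 to 4511 RPM in the other sham libraries. After sleeve gastrectomy it stood at 2064 to 5825 RPM. In Cyp2c7, ciRNA608 (chromosome 1, 148084409 to 148107916, minus strand, 23508 bases) was at 1622, 2311, 1874, 1905 and 1813 RPM in sham and 3213, 639, 2373, 1638 and 3287 RPM after sleeve gastrectomy. The relapse libraries split, with 0 and 2041 RPM. In Ces1d, ciRNA239 was read in sham 4 at 3360 RPM, in sleeve gastrectomy 5 at 3287 RPM and in both relapse libraries at 3410 and 1800 RPM, and in no other library. In Camta1, ciRNA269 was at 0 in sleeve gastrectomy 5 and relapse 2 and at 351 to 1278 RPM in the rest. By position, ciRNA608 had an end on an exon edge and a whole exonic circRNA inside it.

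The other 3 identifier ciRNAs among the 10 most abundant had these levels. The ciRNA218 of WASH complex subunit 1, part of an actin regulator on endosomes, was at 991 ± 274 RPM in sham libraries, 1327 ± 442 after sleeve gastrectomy and 1269 ± 731 in relapse. In Ttc3, ciRNA268 was at 545 ± 355, 724 ± 187 and 1012 ± 253 RPM; like ciRNA608, it had an end on an exon edge and a whole exonic circRNA inside it. The ciRNA282 of a zinc finger protein gene was at 744 ± 219, 748 ± 587 and 971 ± 81.5 RPM, with 0 in sleeve gastrectomy 1 and 1621 RPM in sleeve gastrectomy 2. For these 10 ciRNAs the smallest adjusted p was 0.996 between sleeve gastrectomy and sham, 1.0 between relapse and sleeve gastrectomy and 0.860 between relapse and sham (edgeR).

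**Figure D5:**
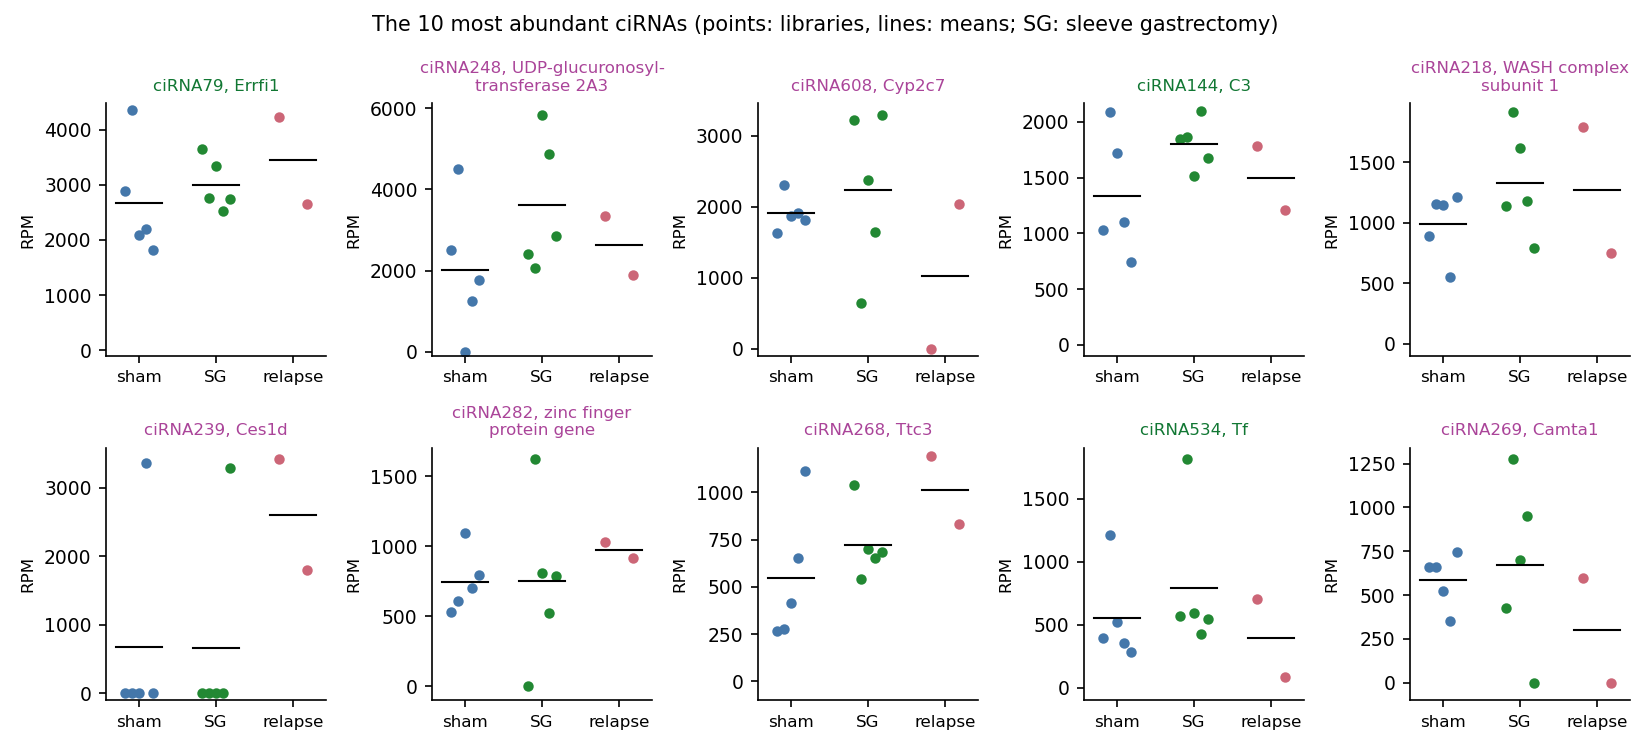
Points give the level (RPM) of the 10 most abundant ciRNAs in each library and lines the group means (SG, sleeve gastrectomy), with titles of symbol entries in green and of identifier entries in purple. Errfi1 and C3 are read in every library, whereas ciRNA239 of Ces1d is at 0 in 8 of the 10 sham and sleeve gastrectomy libraries.

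The junctions were tested next. Of 1519 junctions that passed the filter on low counts, 108 were ciRNAs, 22 of them symbol and 86 identifier entries; the other ciRNA junctions had too few reads. No ciRNA passed the test (edgeR, adjusted p under 0.05) in any of the 3 comparisons, and neither did any other junction, so that 0.0% of all junctions were called. DESeq2 also called no ciRNA. At an unadjusted p under 0.05, edgeR found 4 ciRNAs between sleeve gastrectomy and sham, 4 between relapse and sleeve gastrectomy and 10 between relapse and sham, which was 3.70%, 3.70% and 9.26% of the ciRNAs tested, against 3.88%, 4.81% and 5.79% of all junctions. With DESeq2 these counts were 4, 3 and 7, or 3.70%, 2.78% and 6.48% of the ciRNAs tested, against 4.02%, 4.74% and 5.46% of all junctions. The median log2 difference of the ciRNAs tested was 0.26 between sleeve gastrectomy and sham, beside -0.01 for all junctions; it was -0.23 beside -0.07, and 0.16 beside -0.04, in the other comparisons. Relapse is compared with sham and with the same sleeve gastrectomy libraries that enter the first comparison, so the comparisons share samples.

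The ciRNAs with the smallest p, described next, are identifier entries except for ciRNA39 of Hp and ciRNA62 of AABR07065078. All of these ciRNAs were picked by p from the same counts that give their fold differences. The sizes of the differences were not checked on other samples. By position, ciRNA195, ciRNA549 and ciRNA944 had an end on an exon edge and a whole exonic circRNA inside them, and ciRNA240 had an exonic circRNA inside it. Between sleeve gastrectomy and sham none passed. The first, ciRNA2147 at the identifier of RT1 class Ia A1, a classical antigen-presenting molecule of the rat (chromosome 20, 5377360 to 5416741, plus strand, 39382 bases), was at 430, 550, 0, 150 and 0 RPM in sham and at 0 in all other libraries. Set against the floor of 3 reads over the group, the pooled sham level was at least 9.52-fold higher than that of sleeve gastrectomy, with an adjusted p of 0.926 (edgeR). The genes of this region are highly alike, so reads could have been assigned to the wrong copy. In Usp7, a deubiquitinase, ciRNA180 was at 165, 0, 0, 251 and 0 RPM in sham and at 473, 540, 809, 164 and 205 RPM after sleeve gastrectomy. The groups overlapped, and the log2 fold change was 2.19 ± 0.77 (adjusted p = 0.926). In Evi5, a regulator of Rab GTPases and the cell cycle, ciRNA195 was at 66.2, 0, 104, 0 and 0 RPM in sham and at 520, 147, 431, 229 and 171 RPM after sleeve gastrectomy, without overlap (log2 fold change 2.88 ± 1.03, adjusted p = 0.926).

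Further down the order were ciRNA272 of the translation initiation factor gene Eif4g3, with a log2 fold change of 2.43 ± 1.15, ciRNA549 of Ugt2b35, a glucuronosyltransferase, with 3.06 ± 1.56, and ciRNA39 of Hp, with -1.67 ± 0.84 (adjusted p = 0.996 for each, edgeR). In sham, ciRNA272 and ciRNA549 were read in sham 4 alone, and without it their values were 5.49 and 5.28, fitted against a group at 0. Without sleeve gastrectomy 1 the value of ciRNA39 was -2.55. The last is a symbol entry. It was at 331, 495, 208, 150 and 883 RPM in sham and at 378, 295, 0, 0 and 0 RPM after sleeve gastrectomy, so that 3 sleeve gastrectomy libraries lay below every sham library.

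Between relapse and sleeve gastrectomy, ciRNA240 of Ces1d had the smallest p. It was at 433 and 269 RPM in relapse, at 165 RPM in sham 2 and at 0 elsewhere, and its pooled level in relapse was at least 12.9-fold higher than the floor after sleeve gastrectomy (adjusted p = 0.747). In Dpyd, ciRNA944 was at 728, 440, 677, 0 and 0 RPM in sham, at 425, 393, 270, 0 and 479 RPM after sleeve gastrectomy and at 0 in both relapse libraries. That bound was at least 5.58-fold lower in relapse than after sleeve gastrectomy (adjusted p = 0.981), and 1.85-fold without relapse 2, the deeper relapse library. In Gnaq, which encodes a G protein subunit, ciRNA276 was at 920 and 940 RPM in relapse and at 131 to 685 RPM after sleeve gastrectomy, without overlap (log2 fold change 1.14 ± 0.55, adjusted p = 1.0). In Mgam, which encodes a disaccharide-splitting enzyme, ciRNA941 was read in 3 sleeve gastrectomy libraries, at 229 to 331 RPM, and in neither relapse library. The ciRNAs of Il1r1 and Car8 described next were also among the 6 with the smallest p here, with ciRNA898 at least 2.48-fold lower in relapse (adjusted p = 0.981), a bound that was lost at 0.823 without relapse 2, and ciRNA265 at a log2 fold change of 1.54 ± 0.78 (adjusted p = 1.0).

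Between relapse and sham, ciRNA898 of Il1r1 was at 199, 165, 312, 301 and 279 RPM in sham and at 0 in both relapse libraries. After sleeve gastrectomy it was at 142, 0, 162, 131 and 205 RPM. Its pooled level in relapse was at least 4.60-fold lower than in sham (adjusted p = 0.706), and 1.52-fold without relapse 2. In Car8, a protein related to carbonic anhydrases, ciRNA265 was at 1299 and 1182 RPM in relapse, at 298, 0, 260, 301 and 372 RPM in sham and at 189, 786, 809, 426 and 0 RPM after sleeve gastrectomy. Relapse lay above every other library, with a log2 fold change over sham of 2.29 ± 0.80 (adjusted p = 0.706). In Cat, which encodes catalase, ciRNA674 was at 186 to 729 RPM in sham and at 0 and 134 RPM in relapse (log2 fold change -2.38 ± 1.01, adjusted p = 0.747); without relapse 2 the fitted value was -6.37, against a single library at 0. The ciRNA180 of Usp7 was at 541 and 376 RPM in relapse, above every sham library (log2 fold change 2.29 ± 0.92, adjusted p = 0.706). The ciRNA944 of Dpyd was at least 7.32-fold lower in relapse than in sham, or 2.43-fold without relapse 2 (adjusted p = 0.706). The symbol entry ciRNA62 of AABR07065078 was at 271 and 107 RPM in relapse and at 0 in sham, a pooled level at least 5.87-fold above the floor (adjusted p = 0.788).

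The relapse comparisons turned on single libraries. In Cyp2c7, ciRNA608 passed when relapse 2 was left out, as the remaining relapse library was at 0 (edgeR, adjusted p under 0.05). The ciRNA177 at the identifier of an alpha-2u globulin, a urinary protein of male rat liver (chromosome 5, 77722817 to 77748886, minus strand, 26070 bases), had 64 reads in relapse 1 and none in the other 11 libraries; it passed when relapse 2 was left out or when no filter was applied. The alpha-2u globulin genes are near-identical copies, so this count is uncertain. With relapse 1 left out, ciRNA269 of Camta1 passed; relapse 2 was at 0, as was sleeve gastrectomy 5. Each fit without a relapse library leaves 1 library in that group, which is assumed to vary like the other groups, so these calls have no replicate check.

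Summing all ciRNA reads of a host gave the same result on calls. Of 1489 sums of a host and a circRNA type that were tested, 113 were ciRNA sums, and none passed in any comparison (edgeR). Of all sums, 0.134% were called between sleeve gastrectomy and sham, both calls being sums of other types, and 0.0% in the relapse comparisons. The unadjusted p was under 0.05 for 8, 4 and 9 ciRNA sums with edgeR. This was 7.08%, 3.54% and 7.96% of the ciRNA sums, against 3.83%, 4.37% and 5.17% of all sums. With DESeq2 it was under 0.05 for 7, 2 and 6 ciRNA sums. That was 6.19%, 1.77% and 5.31% of them, against 4.23%, 4.23% and 4.84% of all sums. In none of the gene lists by role did a ciRNA sum pass; 6 sums of xenobiotic and steroid metabolism were tested, 3 of plasma transport and 3 of glucose production.

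Host sums gathered the reads of all ciRNAs of a gene. For Tf, where symbol entries held 375 of the 469 reads, they were 1158, 2256, 989, 852 and 1302 RPM in sham and 1985, 2653, 2050, 1704 and 2294 RPM after sleeve gastrectomy, with 2328 and 886 RPM in relapse. Sham 2 lay within the sleeve gastrectomy range and the other sham libraries lay below it (log2 fold change 0.70 ± 0.29, unadjusted p = 0.0201, adjusted p = 0.999). For C3 the sums were 1655, 2421, 1718, 1153 and 744 RPM in sham and 2835, 2457, 2050, 2752 and 1952 RPM after sleeve gastrectomy, again with sham 2 inside the range (0.64 ± 0.27, unadjusted p = 0.0238, adjusted p = 0.999). For Hp they were 761, 605, 364, 301 and 2046 RPM in sham and 520, 295, 53.9, 328 and 34.2 RPM after sleeve gastrectomy (-1.72 ± 0.61, adjusted p = 0.763); without sham 5 the value was -1.07. These are 3 secreted plasma proteins, with the values of Tf and C3 higher and those of Hp lower after sleeve gastrectomy, none past the threshold.

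For Pck1 the sums were 728, 715, 729, 1003 and 604 RPM in sham libraries, 473, 786, 593, 229 and 479 RPM after sleeve gastrectomy and 379 and 510 RPM in relapse (log2 fold change of sleeve gastrectomy over sham -0.59 ± 0.40, adjusted p = 0.999). For LOC297568 they were 132, 165, 104, 200.6 and 93.0 RPM in sham libraries, 189, 98.3, 539, 197 and 411 RPM after sleeve gastrectomy and 812 and 564 RPM in relapse. Relapse lay above every other library, with a log2 fold change over sham of 2.22 ± 0.76 (adjusted p = 0.732). The sums of Il1r1 were at 331 to 903 RPM in sham and at 0 and 215 RPM in relapse (-1.92 ± 0.84, adjusted p = 0.883); the value was -1.06 without relapse 1 and -6.49 without relapse 2. The ciRNA sums of Evi5, Usp7, Car8, AABR07065078 and the RT1 class Ia A1 identifier rested on the junctions described above. Between relapse and sleeve gastrectomy the hosts with the smallest p were Atg10 and AABR07062583, annotated as DENN domain containing 5B, which were read in relapse 1 and not in relapse 2, and Cdyl and Rnf13, which had 0 and at most 2 reads in relapse (adjusted p = 1.0 for each).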

How the data were processed

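Liver RNA of 12 rat libraries was depleted of ribosomal RNA and treated with RNase R, per the labels' protocols. The authors deposited 1 table of back-splice read counts per circRNA and library, and a normalised signal called SRPBM, which was not used here. The submitters' processing notes name cutadapt 1.9, FastQC, TopHat2 2.0.10 and the build Rnor_6.0; the caller of back-splices is not given in the sources used here. Groups came from the sample labels. Host identifiers were joined to symbols through transcripts, junctions and gene records of the table itself (1449 of 1696 identifiers). Entries of a junction listed under both a symbol and an identifier, with starts 1 base apart, were summed, giving 21068 junctions, of which 2752 were ciRNAs.

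Counts were tested with edgeR 4.0.16 in R 4.3.3 (TMM, robust quasi-likelihood, group means of all 3 groups, filterByExpr with a minimum count of 5 and total of 15), with Benjamini-Hochberg adjustment over all features and a threshold of 0.05. DESeq2 1.42.0, other filters and scalings, each library left out and a replicate block were alternatives. The edgeR script was tested on simulated data. Summaries and figures used Python 3.11.15, pandas 2.3.3 and matplotlib 3.10.9. Named were the 10 most abundant ciRNAs, the 6 junctions and 4 hosts with the smallest p in each comparison, the 6 hosts and 5 introns with the most ciRNAs, the 3 longest and 3 shortest entries, leading hosts of each gene list, and the 5 highest and 5 lowest ciRNA shares of hosts with at least 50 ciRNA reads, ties going to more reads. The ciRNAs that passed under an alternative, the 14 read in all libraries, the tied introns and hosts, and the shares of Errfi1, Zdhhc16, C3, Pck1, Cyp2e1 and Tf were added after their values were seen. The members and lists were chosen with earlier results of these data known. Same-numbered libraries of different groups were not paired by the labels.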

Additional observations from a re-analysis of the deposited data

Results flagged for a closer look

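The gap of the highest or lowest library to the nearest other of its group was divided by the range of the group. A library was flagged where this ratio exceeded Dixon's critical value for 5 samples. In all, 32 groups of values were looked at and 4 were flagged, where chance flags about 1 in 20. The ciRNA239 of Ces1d, an identifier entry, stood at 3360 RPM in sham 4 and at 0 in the other sham libraries, and at 3287 RPM in sleeve gastrectomy 5 and at 0 in the other sleeve gastrectomy libraries. The Tf junction of ciRNA534, summed with the identifier entry ciRNA220, stood at 1210 RPM in sham 2. The other sham libraries were at 279 to 521 RPM. The sum stood at 1818 RPM in sleeve gastrectomy 2, against 426 to 593 RPM in the others of that group. In sham 2, ciRNA534 held 14 of the 22 summed reads and ciRNA220 held 8. In sleeve gastrectomy 2, ciRNA534 held 12 of the 37 and ciRNA220 held 25. Both Tf flags thus apply to the sum, and a flag for either entry alone was not tested. Neither ciRNA239 nor the summed Tf junction passed a test between groups.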

How the results depend on the processing

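The counts of ciRNA junctions and hosts called between sleeve gastrectomy and sham stayed at 0 under every alternative run. In both relapse comparisons, 1 junction and 1 host passed with no filter. Leaving out a library gave 0 to 2 junctions and 0 to 2 hosts in both relapse comparisons; only leaving out relapse 1 or relapse 2 gave any, and each leaves a relapse group of 1 library, assumed to vary like the others. DESeq2, RLE scaling, a minimum count of 10, only the groups compared, entries or host names as written, and symbol entries only gave 0 in each comparison. Summing reads over a shared 5′ end, chosen after seeing the data, also gave 0 with edgeR and with DESeq2. The replicate block gave 0 called ciRNA junctions and hosts in each comparison. The deviations of same-numbered libraries from their group means had correlations of -0.0961 to 0.0237. Low counts can hide a shared deviation, and 2 relapse libraries deviate in opposite directions by construction. A pairing or batch was therefore not excluded. None of the log2 fold changes of the ciRNAs and hosts with the smallest p turned sign or passed the threshold under the alternatives that kept them. The difference in ciRNA share ranged from -0.675 to 0.833 percentage points (relapse minus sleeve gastrectomy) and from 0.104 to 1.61 (relapse minus sham) when a library was left out; the cause was not tested. The median length of 727.5 bases became 2327 when weighted by reads. The share of ciRNAs with a shared 5′ end became 29% when overlap counted, 17.2% for ciRNAs read in at least 2 libraries and 24.5% for symbol entries. The share read in 1 library, 77.1%, became 84.1% for symbol entries, and the share of hosts with an exonic circRNA became 58.4% with host names as written. Depth limits the tests: 108 of 2752 ciRNA junctions passed the filter.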
